A study of Mus musculus with 16 samples.

Results

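Lineage transcription factors of the Th2 cell were followed in the D10 line, a fast-growing mouse variant of 1 Th2 clone. The list held 9 factors (Gata3, Maf, Irf4, Nfil3, Bcl6, Ikzf1, Runx1, Runx3 and Tbx21), which were looked up by gene symbol among the 18138 genes of the array; 8 were found, and Nfil3 had no entry under its symbol. Cells were left without inhibitor or pre-incubated with 10 µM Akti1/2, an allosteric inhibitor of the kinases Akt1 and Akt2, for 1 h. Both arms were then stimulated with biotinylated antibodies to CD3 and CD28 cross-linked by streptavidin for 0, 2, 6 or 12 h, and all cells were kept in IL-2. The methods describe the control arm as untreated, while the results of the study name a solvent. Each of the 8 groups had 2 Illumina arrays, and p-values measure only the spread between these samples, which may be technical, since no source says that they were separate cultures.

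In a helper T cell, the fate is set by transcription factors that switch on one cytokine program and hold back the others. GATA3 opens the Th2 cytokine locus, c-Maf activates the Il4 promoter, and IRF4 works downstream of the antigen receptor with partners such as BATF. BCL6 is a repressor that directs the follicular helper fate. Ikaros (Ikzf1) shapes chromatin through development and differentiation, and T-bet (Tbx21) and RUNX3 together drive the Th1 program and silence Il4. Akt is switched on by CD28 and the antigen receptor and keeps FOXO factors out of the nucleus.

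The start regions of the members that moved most are shown so that the genes behind the values below can be placed in the genome. They are the 250 bases before the RefSeq transcription start (build GRCm38.p6), 5′ to 3′ on the strand of the gene, and capitals mark a match to one of the motifs searched. Bcl6 has 2 such starts in the table, both on the minus strand of chromosome 16, at chr16:23981284-23981533 and chr16:23988853-23989102. Gata3 lies on the minus strand at chr2:9878601-9878850 and Irf4 on the plus strand at chr13:30748983-30749232.
Gata3: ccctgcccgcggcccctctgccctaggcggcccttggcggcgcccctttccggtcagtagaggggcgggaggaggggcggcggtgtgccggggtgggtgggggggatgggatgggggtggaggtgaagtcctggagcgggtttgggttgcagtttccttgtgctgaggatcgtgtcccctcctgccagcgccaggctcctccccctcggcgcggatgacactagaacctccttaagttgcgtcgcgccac
Irf4: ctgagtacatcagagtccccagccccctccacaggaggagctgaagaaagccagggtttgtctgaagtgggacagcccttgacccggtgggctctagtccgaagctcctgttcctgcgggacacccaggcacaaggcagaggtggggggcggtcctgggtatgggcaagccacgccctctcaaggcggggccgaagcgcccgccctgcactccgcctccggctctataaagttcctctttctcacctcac
Bcl6, nearer start: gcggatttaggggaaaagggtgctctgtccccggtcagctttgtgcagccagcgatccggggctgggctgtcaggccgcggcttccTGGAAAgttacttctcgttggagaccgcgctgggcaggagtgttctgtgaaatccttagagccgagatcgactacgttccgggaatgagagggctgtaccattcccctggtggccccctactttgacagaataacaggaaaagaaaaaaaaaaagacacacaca
Bcl6, farther start: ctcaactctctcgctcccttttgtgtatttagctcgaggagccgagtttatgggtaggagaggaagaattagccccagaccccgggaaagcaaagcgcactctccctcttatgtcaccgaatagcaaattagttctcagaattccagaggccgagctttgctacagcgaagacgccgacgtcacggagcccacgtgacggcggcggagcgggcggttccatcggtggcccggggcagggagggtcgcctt

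Promoter windows, from 250 bases before to 50 after the start, were given for 8 of the 9 listed factors, 12 windows in all. They were searched on both strands for 5 motifs. The FOXO motif TGTTTAC was in 0 of the 12 windows, against 3.6% of all 32851 windows in the table. The AP-1 motif TGANTCA was also in 0, against 7.8% of all windows, as was the motif of GATA factors, AGATAA, against 11.2%. The NFAT motif TGGAAA was in 3 windows, namely 1 of Bcl6 (the capitals above, bases -164 to -159 from the start) and both of Runx1, against 21.4% of all windows. The RUNX motif TGTGGT was in 1 window of Runx1 and 1 of Runx3, against 16.8% of all windows. A match in a window is a description of the letters and does not show a bound site.

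Background was set by the 798 negative controls of each array, and a gene counted as above it when the share of controls at least as bright, the detection p, was under 0.01. This held for 6288 to 6907 genes per array. Measured as the 95th percentile over the mean negative control, the signal ran from 8.98 to 14.28, lowest on replicate 2 of the 2 h Akti1/2 cells. The labelled cell type matched its markers in part. Of 8 T cell markers 7 were above background on some array (Trat1 on none), and of 8 Th2 markers 6 were above it on all 16 arrays (Ccr4 and Ptgdr2 on none). Stat4 was the only one of 5 Th1 markers above background, none of 5 Th17 markers was, and none of 8 macrophage and dendritic markers was. Of 4 B cell markers, Ms4a1 was above background on 1 array, and of 4 cytotoxic markers Prf1 was on all 16. Of 4 regulatory T cell markers, Il2ra and Ctla4 were above it on all 16 arrays. Gata3, Tbx21 and Bcl6 are themselves in the Th2, Th1 and follicular helper lists.

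The files place Gata3 (Entrez gene 14462) on chromosome 2, Irf4 (16364) on 13, Ikzf1 (22778) and Tbx21 (57765) on 11, Bcl6 (12053) and Runx1 (12394) on 16, Runx3 (12399) on 4 and Maf (17132) on 8. Gata3, Irf4 and Ikzf1 were above background on all 16 arrays, Bcl6 on 12 and Runx1 on 5. The deposited intensity of Gata3 ranged from 4229.9 to 7898.8. Maf and Tbx21 were above background on 0 of 16 arrays and Runx3 on 1. The deposited intensities of Maf ranged from 109.4 to 151.8 (median 135.1) and those of Tbx21 from 105.6 to 142.8 (median 129.2). The intensities of Runx3 ranged from 108.7 to 170.5, the highest being replicate 1 of the 12 h Akti1/2 cells. On these arrays the 99th percentile of the negative controls itself lay between 134.7 and 174.2, so that the probes for Maf, Runx3 and Tbx21 give a bound on brightness and no order of groups. Testing was limited to the 5 members that exceeded background on 2 or more arrays, and Bcl6 and Runx1 passed that filter only through the stimulated groups.

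**Figure D1:**
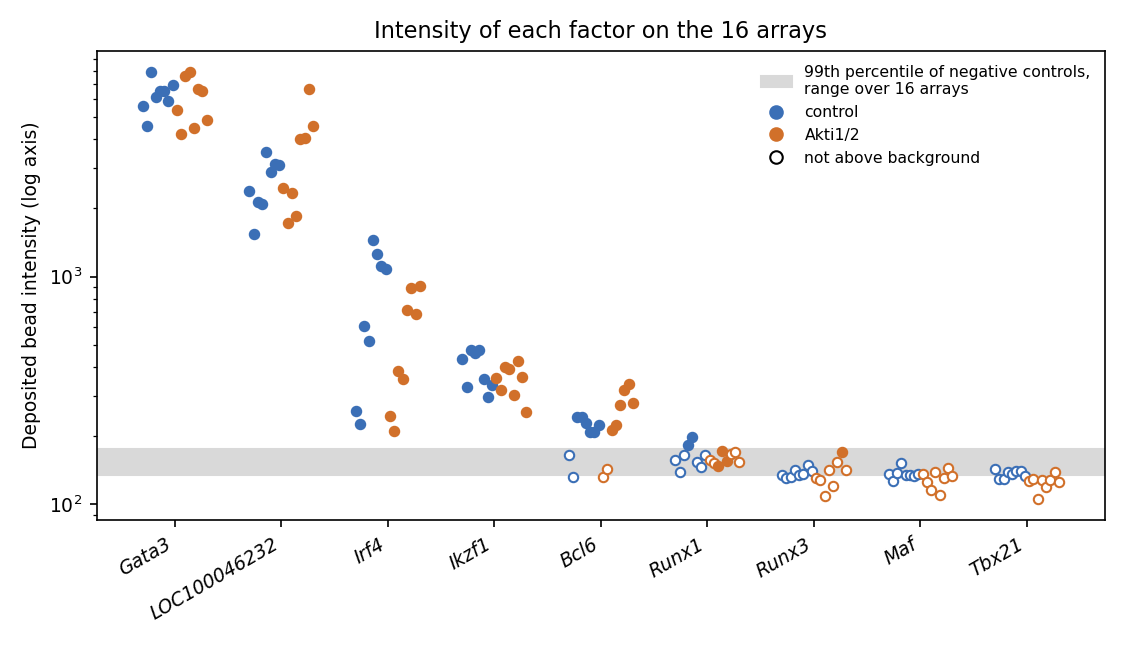
Deposited bead intensity (log axis) of the 8 members found and of LOC100046232 on the 16 arrays, with each point 1 array, open points not above background, and the grey band the range of the 99th percentile of the negative controls. Gata3, Irf4 and Ikzf1 stand above background on all 16 arrays, and Maf and Tbx21 on none.

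Levels below are log2 intensities after background correction and quantile normalization, and changes are differences of these levels from limma, fitted over all 8 groups and adjusted over the 7395 genes tested by Benjamini-Hochberg. A change was called at an adjusted p under 0.05. The design asks how each factor responded to stimulation and whether Akti1/2 altered that response. Against 0 h, only the 3 members above background in every group (Gata3, Irf4 and Ikzf1) are counted, since Bcl6 and Runx1 were at background at 0 h and entered through the groups where they were brighter. In control cells 2 of these 3 were called at 2 h (Gata3 and Irf4) and 1 at each of 6 h and 12 h (Irf4), all higher than at 0 h. Over all genes tested, 10.3%, 27.5% and 27.8% were called at these times, with 4.42%, 12.1% and 12.7% called as higher. In Akti1/2-treated cells all 3 were called at 2 h and 1 at each of 6 h and 12 h (Irf4), all higher, against 38.6%, 33.3% and 44.5% of all genes, with 17.8%, 15.4% and 21.1% called as higher. The responses of an arm share their 0 h arrays. In RNA of whole cultures, fewer cells expressing a gene and less RNA per cell cannot be told apart.

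Gata3, the master regulator of the Th2 fate, was high before stimulation and rose modestly, with its highest level at 2 h under Akti1/2. In control cells its log2 level was 12.22 and 12.24 at 0 h, 12.69 and 12.58 at 2 h, 12.47 and 12.65 at 6 h, then 12.49 and 12.53 at 12 h. With Akti1/2 it was 12.22 and 12.21 at 0 h, 13.07 and 13.31 at 2 h, 12.32 and 12.57 at 6 h, then 12.46 and 12.41 at 12 h. In normalized level both arrays at 2 h with Akti1/2 lay above the other 14, and all stimulated arrays lay above the 4 at 0 h. In deposited intensity the brightest array was replicate 1 of the 2 h control cells (7898.8), above both 2 h Akti1/2 arrays (7626.2 and 7881.1). The mean deposited intensity at 2 h was 7753.65 with Akti1/2 and 7024.05 without. The rise at 2 h was 0.41 on the log2 scale in control cells (standard error 0.12, adjusted p = 0.0483) and 0.97 with Akti1/2 (adjusted p = 1.05e-04). The control value passed the threshold narrowly, and it missed it without any 1 of the 4 arrays compared (adjusted p 0.122 to 0.202 by limma), with a chip block (0.0515), without the filter on dim genes (0.0731) and with only the groups compared (0.0849). At 6 h and 12 h the control rise was 0.33 and 0.28 and that under Akti1/2 was 0.23 and 0.21, none of them called (adjusted p 0.0577 to 0.170).

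At 2 h Gata3 was 0.55 higher with Akti1/2 than without (standard error 0.12, adjusted p = 0.00559), a fold of 1.46. Within the chips, each of which held 1 array per group, the difference was 0.38 and 0.72. Replicate 2 of the 2 h Akti1/2 cells has the highest Gata3 level and the lowest signal over background, and without it the difference was 0.43 (adjusted p = 0.0551). The difference in response, taken as the Akti1/2 change since 0 h less the control change, was 0.56 (95% interval 0.19 to 0.93) and missed the threshold (adjusted p = 0.0600). Between 2 h and 6 h with Akti1/2 Gata3 fell by 0.74 (adjusted p = 9.74e-04, and 0.0503 in a fit of those 4 arrays alone). At 6 h and 12 h the level with Akti1/2 was -0.11 and -0.08 relative to control (adjusted p 0.488 and 0.629).

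Irf4, which the antigen receptor induces in proportion to its signal, had the largest rise of the members measured on both sides. Control cells gave 6.81 and 6.90 at 0 h, 8.78 and 8.77 at 2 h, 10.22 and 10.17 at 6 h, then 9.96 and 9.70 at 12 h. Cells with Akti1/2 gave 6.98 and 6.86 at 0 h, 8.36 and 8.42 at 2 h, 9.38 and 9.46 at 6 h, then 8.91 and 9.74 at 12 h. At 2 h and at 6 h both Akti1/2 arrays lay below both control arrays, whereas at 12 h the 2 arms overlapped. The control rise was 1.92, 3.34 and 2.97 at 2, 6 and 12 h (standard error 0.20, adjusted p = 6.32e-05, 1.65e-07 and 5.38e-07). The rise with Akti1/2 was 1.47, 2.50 and 2.41 (adjusted p = 2.02e-04, 2.33e-06 and 1.54e-06), so that Irf4 was strongly induced in both arms.

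At 6 h Irf4 was 0.77 lower with Akti1/2 (log2 difference -0.77, standard error 0.20, adjusted p = 0.00865), with values of -0.83 and -0.71 within the chips. At 2 h the difference was -0.38 (adjusted p = 0.168). At 12 h it was -0.50 (adjusted p = 0.0533), and the 2 Akti1/2 arrays gave different values: without replicate 2 it was -0.91 (adjusted p = 3.57e-04) and without replicate 1 it was -0.09 (adjusted p = 0.659). The difference in response at 6 h was -0.84 (95% interval -1.45 to -0.23, adjusted p = 0.0548), which misses the threshold and passes it in 4 alternatives, with a block for chip among them (adjusted p = 0.0470). Those at 2 h and 12 h were -0.45 and -0.56 and were not called (adjusted p 0.347 and 0.147).

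Nfil3 encodes the repressor E4BP4, known for its part in Il10 expression and in NK cell development. An entry named LOC100046232, whose deposited definition calls it a predicted gene similar to NFIL3/E4BP4, stands outside the rule and is not counted among the members; it was picked after its definition was read, and the RefSeq gene table used here does not pair it with Nfil3. Its control level was 10.89 and 10.57 at 0 h, 10.76 and 11.02 at 2 h, 11.53 and 11.41 at 6 h, then 11.52 and 11.32 at 12 h. With Akti1/2 it was 11.06 and 10.90 at 0 h, 11.34 and 11.30 at 2 h, 12.16 and 11.85 at 6 h, then 12.48 and 12.29 at 12 h. At every time, 0 h included, both Akti1/2 arrays lay above both control arrays in normalized level. In deposited intensity the arms overlapped at 0 h and at 2 h (2329.6 and 1836.4 with Akti1/2 at 2 h, 2128.2 and 2074.1 without). LOC100046232 was higher with Akti1/2 by 0.43 at 2 h, 0.54 at 6 h and 0.97 at 12 h (adjusted p = 0.0492, 0.0144 and 2.12e-04), and by 0.25 at 0 h, which was not called (adjusted p = 0.993). The 2 h call was lost without any 1 of the 4 arrays compared, where the difference was 0.30 to 0.56. It was also lost with scaling to the same mean, without the filter on dim genes and with only the groups compared (limma adjusted p = 0.152, 0.0883 and 0.0958). The 6 h call was lost without replicate 2 of control or replicate 1 of Akti1/2 cells (differences of 0.48 and 0.38). It was also lost with scaling to the same mean and with only the groups compared (limma adjusted p = 0.0503 and 0.0645). The difference in response at 12 h was 0.72 (standard error 0.21, adjusted p = 0.0218), with 0.99 and 0.44 within the chips. This call was lost without any of 4 arrays, namely replicate 1 of control or replicate 2 of Akti1/2 cells at 0 h and replicate 2 of control or replicate 1 of Akti1/2 cells at 12 h (adjusted p 0.0763 to 0.0959).

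Bcl6, the repressor that directs the follicular helper fate, rose from background in both arms and was higher with Akti1/2 at 6 h and 12 h. All 4 arrays at 0 h were not above background, and all 12 stimulated arrays were above it. In control cells it reached 6.88 and 7.05 after 2 h, then 6.69 and 6.63 after 6 h and 6.54 and 6.55 after 12 h. With Akti1/2 it reached 7.01 and 7.17 at 2 h, 7.54 and 7.47 at 6 h, then 7.52 and 7.45 at 12 h. The arms overlapped at 2 h and stood apart at 6 h and 12 h, where every control array lay below those at 2 h and every Akti1/2 array above. Neither change from 2 to 6 h was called (-0.31 in control cells, adjusted p = 0.268, and 0.41 with Akti1/2, adjusted p = 0.0929). Against the lowest signal above background, Bcl6 was at least 2.51-, 2.03- and 1.88-fold higher at 2, 6 and 12 h than at 0 h in control cells, and at least 2.71-, 3.6- and 3.57-fold higher with Akti1/2. These are bounds on the background-corrected scale only, and no test against 0 h is given for Bcl6. Over the alternative settings the log2 rise was as low as 0.74, 0.59 and 0.53 in control cells. With Akti1/2 the lowest values were 0.82, 1.05 and 1.04.

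With both groups above background, Bcl6 was 0.84 higher on the log2 scale with Akti1/2 than in control cells at 6 h (standard error 0.17, adjusted p = 0.00236) and 0.94 higher at 12 h (adjusted p = 6.86e-04). Within the chips the 6 h difference was 0.85 and 0.83, and the 12 h difference 0.97 and 0.91. Over the alternative settings it ranged from 0.46 to 1.01 at 6 h and from 0.50 to 1.07 at 12 h. At 2 h the difference was 0.12 (adjusted p = 0.624). No difference in response is given for Bcl6, because its 0 h ends lie at background in both arms. Of the other follicular helper markers, Cxcr5 and Il21 were at background on all arrays, and Pdcd1 was above it on 4 arrays, all of stimulated Akti1/2 cells.

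**Figure D2:**
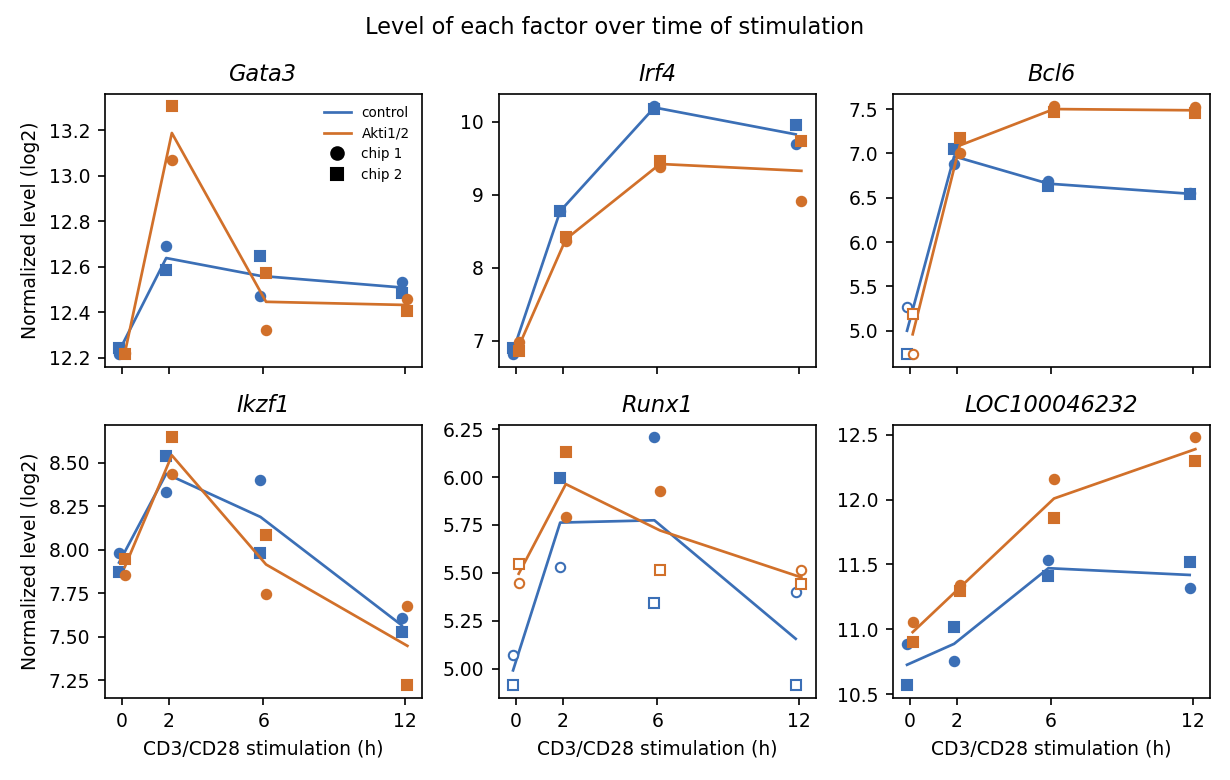
Normalized log2 level against hours of CD3/CD28 stimulation for the 5 members tested and LOC100046232, with 1 point per array (circles on chip 1, squares on chip 2, open where not above background) and lines through the group means. Gata3 is highest at 2 h with Akti1/2 (13.07 and 13.31), the Irf4 lines stand apart at 6 h, and at 6 h and 12 h Bcl6 lies between 7.45 and 7.54 with Akti1/2 and between 6.54 and 6.69 without.

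Ikzf1, which encodes Ikaros, moved less than Irf4 and Bcl6. The control levels were 7.98 and 7.87 at 0 h, 8.33 and 8.54 at 2 h, 8.40 and 7.98 at 6 h, then 7.52 and 7.61 at 12 h. The Akti1/2 levels were 7.85 and 7.95 at 0 h, 8.44 and 8.65 at 2 h, 7.75 and 8.08 at 6 h, then 7.67 and 7.22 at 12 h. In both arms the 2 h arrays lay above those at 0 h and the 12 h arrays lay below them. The rise at 2 h was 0.64 with Akti1/2 (standard error 0.18, adjusted p = 0.0142) and 0.51 without (adjusted p = 0.0934). Ikzf1 then fell by 0.62 between 6 h and 12 h in control cells (adjusted p = 0.0376) and by 0.63 between 2 h and 6 h with Akti1/2 (adjusted p = 0.0202). These 3 calls depended on single arrays. The 2 h rise was not called without replicate 1 at 0 h or replicate 2 at 2 h (adjusted p up to 0.0982), the control fall without replicate 1 at 6 h or either array at 12 h (0.116 to 0.269), and the fall with Akti1/2 without replicate 2 at 2 h or replicate 1 at 6 h (0.128 and 0.161). No comparison of Ikzf1 between the arms was called.

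Runx1, a partner of CBFb that acts in T cell development and opposes Th2 commitment, lay near background throughout. It was above background on 1 of 2 control arrays at 2 h (6.00) and 1 at 6 h (6.21), on both Akti1/2 arrays at 2 h (5.79 and 6.13) and on 1 at 6 h (5.93). Against 0 h, where Runx1 was at background, its lower bound at 2 h with Akti1/2 was 1.24-fold, with both 2 h arrays above background. This bound holds on the background-corrected scale only. By limma that rise was 0.47 on the log2 scale and was not called (adjusted p = 0.181). Over the alternative settings it was as low as 0.15. The deposited intensities with Akti1/2 were 156.4 and 152.5 at 0 h, then 147.0 and 170.8 at 2 h. Between 2 h and 6 h Irf4 rose further, by 1.42 in control cells and 1.03 with Akti1/2 (adjusted p = 6.27e-04 and 0.0027).

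The next counts leave out members with a compared group at background. From 2 to 6 h, 1 of 5 members was called in control cells (14.6% of all genes) and 3 of 5 with Akti1/2 (30.2%). Runx1 was at background at 12 h in both arms. From 6 to 12 h, 1 of 4 was called in control cells (13.6%) and 0 of 4 with Akti1/2 (17.8%). In that last comparison 1 member had an unadjusted p under 0.05. Between the arms at 0 h, where Bcl6 and Runx1 were at background, limma called 0 of 3 members (0.0541% of all genes). None of the 3 had an unadjusted p under 0.05. It called 1 of 5 at 2 h (28.4%), 2 of 5 at 6 h (37.5%) and 1 of 4 at 12 h (49.0%). The calls were Gata3 at 2 h, Irf4 and Bcl6 at 6 h, and Bcl6 at 12 h. For the difference in response, limma called 0 of the 3 members above background in every group at 2, 6 and 12 h, against 8.41%, 19.5% and 32.5% of all genes; Gata3 at 2 h and Irf4 at 6 h had an unadjusted p under 0.05. The members' shares lay close to or below those of all genes in these comparisons of the arms.

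**Figure D3:**
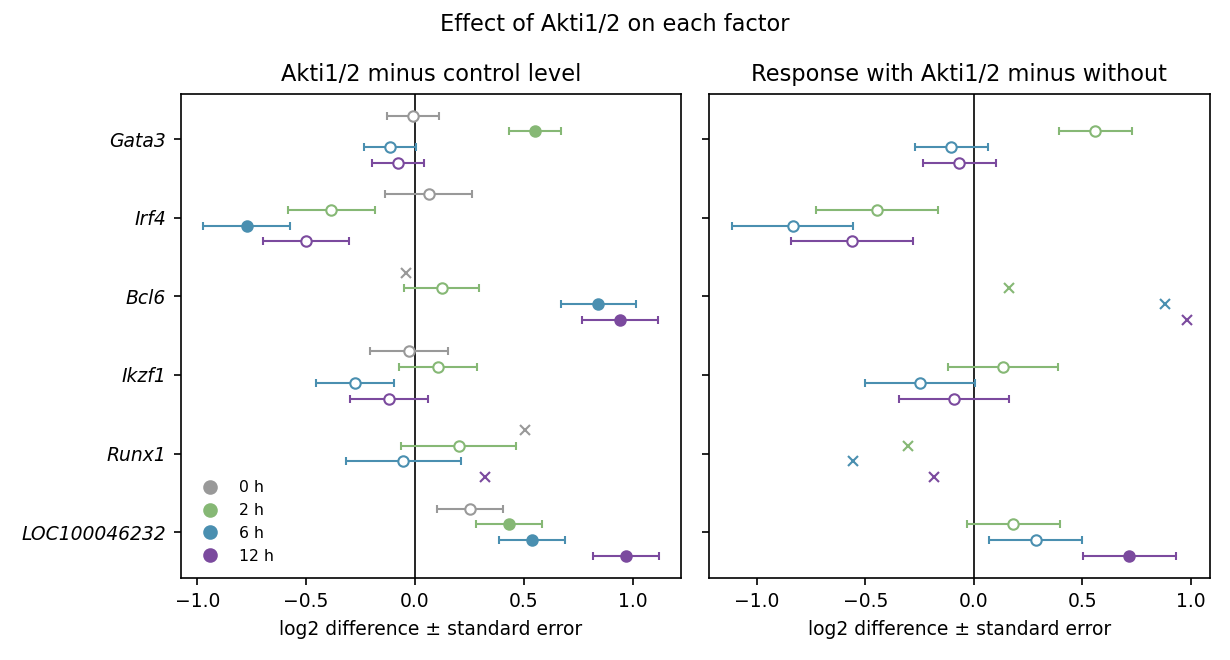
Log2 difference of Akti1/2-treated from control cells at each time (left) and difference in response (right) for the members tested and LOC100046232, with standard errors from limma, filled points called and crosses where a group lies at background. In the left panel Bcl6 lies at 0.84 and 0.94 at 6 h and 12 h and Irf4 at -0.77 at 6 h.

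Other transcription factors of helper T cells were listed for comparison, 58 in all, of which 52 were found and 29 passed the filter on dim genes, 1 of them, Zbtb32, through 1 group alone. In control cells 6 of the 29 were called at 2 h, 13 at 6 h and 14 at 12 h. These were 20.7%, 44.8% and 48.3% of the 29, against 10.3%, 27.5% and 27.8% of all genes. Without Zbtb32 the 12 h count was 13. With Akti1/2 the counts were 12, 14 and 19 at the same times. These were 41.4%, 48.3% and 65.5% of the 29, against 38.6%, 33.3% and 44.5% of all genes. Between the arms 0 were called at 0 h (3 with an unadjusted p under 0.05), 10 at 2 h, 14 at 6 h and 19 at 12 h (18 without Zbtb32). The last 3 counts were 34.5%, 48.3% and 65.5% of the 29, against 28.4%, 37.5% and 49.0% of all genes. At 0 h 0.0541% of all genes were called. The difference in response was called for 2 at 2 h, 9 at 6 h and 16 at 12 h (11 higher and 5 lower with Akti1/2; 15 without Zbtb32), against the shares of all genes given above, and the median over the 29 was 0.03, 0.12 and 0.37 beside -0.01, -0.01 and -0.02 over all genes.

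Among these factors the difference in response of Satb1, a chromatin organizer that binds the Th2 cytokine locus, was 1.15, 1.19 and 1.82 at 2, 6 and 12 h (adjusted p = 0.00134, 2.77e-04 and 7.49e-06). Stat4, which carries the IL-12 signal, had 0.60, 1.01 and 0.96 (adjusted p = 0.0352, 0.00114 and 6.83e-04). Gfi1, a repressor that favors Th2 growth, had -0.42 at 2 h (adjusted p = 0.147), then 0.86 at 6 h and 0.68 at 12 h (adjusted p = 0.00469 and 0.00945), and its level at 2 h was 0.59 lower with Akti1/2 (log2 difference -0.59, adjusted p = 0.0041). Batf, the partner of IRF4 at composite sites, rose by 3.62 in control cells and by 2.68 with Akti1/2 at 6 h, a difference in response of -0.94 (adjusted p = 0.0158). At 12 h Batf had risen by 3.36 and 3.28, a difference in response of -0.08 (adjusted p = 0.831).

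Stat5a, which carries the IL-2 signal, had -1.23 at 6 h and -1.21 at 12 h (adjusted p = 0.00147 and 7.62e-04). Id2, an inhibitor of E proteins, had -1.34 and -1.16 at these times (standard error 0.37, adjusted p = 0.0248 and 0.0310). Within the chips the Id2 values were -2.106 and -0.582 at 6 h, then -0.965 and -1.352 at 12 h. At 2 h Stat5a and Id2 had -0.33 and -0.57 and were not called (adjusted p 0.329 and 0.364). Calls of the other factors were not read under the alternative settings. Bach2, a repressor of effector genes, had 1.77 at 12 h (adjusted p = 8.18e-05) and Irf9, a subunit of the interferon-activated complex ISGF3, had 1.26 (adjusted p = 0.00473), while at 2 h and 6 h neither was called (0.03 and 0.41 for Bach2, 0.05 and 0.46 for Irf9). Zbtb32, a repressor also known as ROG that binds GATA3, was above background only on both 12 h control arrays, where it was at least 1.64-fold higher than with Akti1/2 at 12 h.

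**Figure D4:**
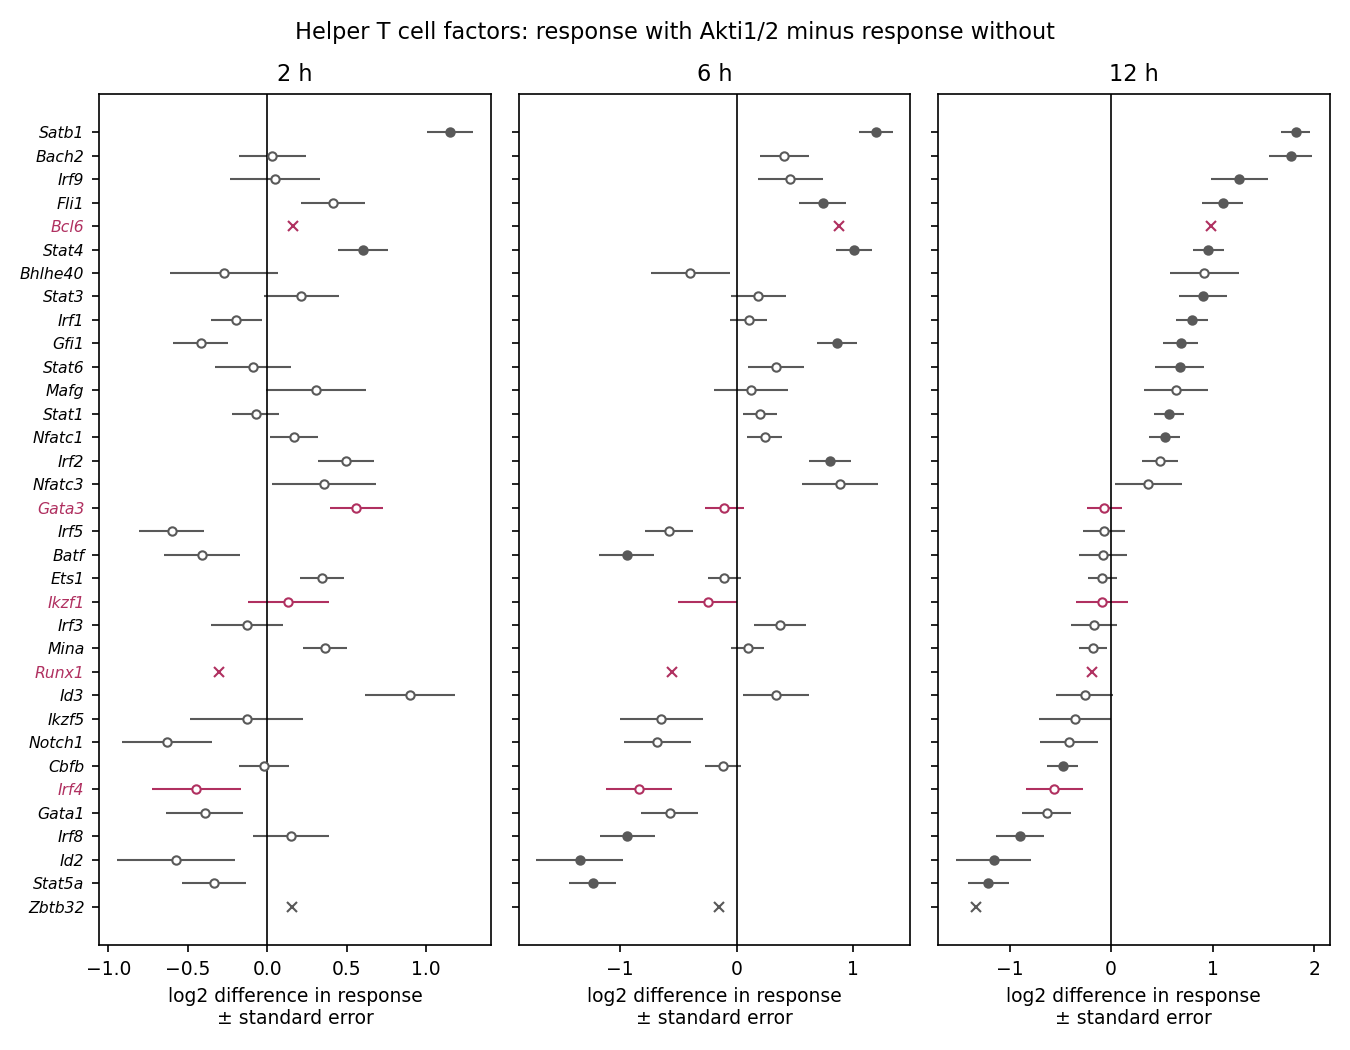
Log2 difference in response (Akti1/2 change since 0 h less the control change) of the other helper T cell factors tested beside that of the members, at 2, 6 and 12 h, with standard errors, filled points called, crosses where a group lies at background and members in red. Satb1 lies at 1.82 at 12 h and Id2 at -1.34 at 6 h, while Irf4 lies at -0.84 at 6 h, which was not called.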

How the data were processed

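The submitters hybridized total RNA of 16 samples to 2 Illumina mouse RefSeq chips. The authors deposited linear bead intensity as 1 value per gene and array, with neither normalization nor background subtraction per the file header; probes of different transcripts of a gene cannot be told apart. A second control table with the same values was not used.

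Background was corrected on the 798 negative controls and arrays were quantile-normalized with neqc (offset 16, log2) in limma 3.58.1 under R 4.3.3. The 7395 genes whose detection p fell below 0.01 on 2 or more of 16 arrays were tested. A single lmFit and eBayes model with no covariate covered all 8 groups (8 residual degrees of freedom), with Benjamini-Hochberg adjustment per comparison and calls under 0.05. The precision is limited by 2 arrays per group. Each of the 2 chips held 1 array of each group; the 12 h control replicate numbers lie on opposite chips from the rest.

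"At least" folds hold on the background-corrected scale only. They set the brighter mean against, per array, the lowest above-background value or, if higher, the value of the dim gene itself. The J5 score that the study's methods name (arrays scaled to the 95th percentile) was an alternative; the study gives a threshold of 20 for 2 h, which was applied here to 6 h and 12 h too. Other alternatives were scaling to the same mean, quantile normalization without background correction, no filter, only genes above background on all arrays, a replicate or chip block, only the groups compared and each array left out in turn. Steps were tested on simulated data. The members and lists were chosen with earlier results of these data known. All members are named, and of the other factors those called for the difference in response with the largest changes (up to 3 higher and 3 lower per time, same direction on both chips). Promoters came from RefSeq (GRCm38.p6). Tables used Python 3.11.15, numpy 2.4.6 and pandas 2.3.3. Of the genes, 16590 have an identifier in the RefSeq gene table.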

Additional observations from a re-analysis of the deposited data

Results flagged for a closer look

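The response of LOC100046232, the predicted gene similar to NFIL3/E4BP4, differed between the arms at 12 h by the test of the difference itself: 0.72 on the log2 scale, higher with Akti1/2 (standard error 0.21, adjusted p = 0.0218, limma). It was 0.99 and 0.44 within the chips, and 4 of the 8 arrays, each left out in turn, took the call away.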

How the results depend on the processing

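Over 102 comparisons of single genes, no called value changed sign under any alternative; 61 uncalled values did, in 29 comparisons. Bcl6 kept its calls between the arms at 6 h and 12 h and Irf4 its call at 6 h under every limma alternative that tested them. The counts below cover all 5 members tested, with Bcl6 and Runx1, whose changes from 0 h start at background and are no measured differences. On that footing the main fit called 3, 3 and 2 at 2, 6 and 12 h in control cells and 4, 2 and 2 with Akti1/2. For the difference in response it called 0, 1 and 1, the calls at 6 h and 12 h being Bcl6. By the J5 score, which weighs bright genes, 1, 1 and 0 members were called at 2, 6 and 12 h in control cells and 1, 0 and 0 with Akti1/2. These calls were all of Gata3 (32.64 and 20.92 in control cells at 2 h and 6 h, 50.7 with Akti1/2 at 2 h). Irf4 stayed under the threshold of 20 throughout, with its highest score, 15.34, in control cells at 6 h. With only genes above background on all arrays, which drops Bcl6 and Runx1, the counts were 1 for control at 12 h, 1 for Akti1/2 at 6 h, 1 between the arms at 6 h, and 1 and 0 for the difference in response at 2 h and 12 h. With only the groups compared they were 0 between the arms at 2 h, 0 from 6 to 12 h in control cells and 1 from 2 to 6 h with Akti1/2. Quantile normalization without background correction gave 2 between the arms at 12 h and 1 and 2 for the difference in response at 2 h and 6 h. A chip block removed the Gata3 call in control cells at 2 h and gave 2 between the arms at 12 h and 2 for the difference in response at 6 h. Without the filter 0 were called from 6 to 12 h in control cells. With 1 array left out, counts ranged from 0 to 1 between the arms at 2 h and 1 to 2 at 12 h, 0 to 1 for the difference in response at 2 h, 0 to 1 at 6 h and 1 to 2 at 12 h, 0 to 2 from 6 to 12 h in control cells and 0 to 1 with Akti1/2. The remaining array of a group was given the spread of the rest. The cause was not tested.

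Gata3 between the arms at 2 h lost its call with only the groups compared (adjusted p = 0.0567). The replicate block removed the Runx1 call in control cells at 6 h, where it left 2 members called, and changed no other call. Pairing by number is unclear, as 2 deviations from a group mean mirror each other. Same-number arrays correlated at -0.30 to 0.26, 10 of 16 matching best by number, 12 by chip. Scaling to the same mean moved the median of all genes to 0.12 for the difference in response at 6 h. Over all genes, fitting only the groups compared took the count from 760 to 433 (control, 2 h), 2462 to 1479 (Akti1/2, 6 h), 2103 to 1121 and 2776 to 1652 (between the arms, 2 h and 6 h), 1078 to 502 (control, 2 to 6 h), and 2230 to 607 and 1313 to 335 (Akti1/2, 2 to 6 h and 6 to 12 h), and leaving out 1 array took it at the lowest from 760 to 261, 2037 to 1201 and 2054 to 1285 (control, 2, 6 and 12 h), 2857 to 1804 (Akti1/2, 2 h), 622 to 193 and 1445 to 923 (difference in response, 2 h and 6 h) and 1005 to 387 (control, 6 to 12 h). At 0 h the arms differed in 4 genes, 7 by quantile normalization without background correction and 2 with only the groups compared.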

Other observations

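Relatives of the members were read from the same table. Gata1 was above background on all 16 arrays at intensities of 162.8 to 271.1 and Gata2 on none. Of the interferon regulatory factors, Irf2 had intensities of 1412.2 to 2663.0 and Irf1 of 361.8 to 1542.7, whereas Irf7 was at background. Irf3, Irf5 and Irf9 were also above background on all 16 arrays, and Irf8 was on 15. Mafg was above background on all 16 arrays, and Maff, Mafk, Bcl6b, Ikzf2, Runx2 and Eomes on none. Levels of different probes are not comparable with each other.

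Over the 8 group means, which share arrays and normalization, the genes most like Irf4 among the 5544 above background on all arrays were Ccl4 (Pearson r 0.989), Il10 (0.989) and Uap1 (0.968). Those most like Gata3 were Mtmr2 (0.973), BC011248 (0.955) and Ahctf1 (0.950), and those most like Ikzf1 were Rgs12 (0.991), Ywhaz (0.968) and Zfp672 (0.962). These values are descriptions over 8 points.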
